A study of Mus musculus with 9 samples.

Results

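The genes described here are 46 members of BMP, TGF-beta and activin signalling, chosen by name and sorted into 11 roles, out of the 39179 Ensembl genes listed for each library. Their Ensembl identifiers were matched to symbols in the GENCODE annotation of GRCm38, and all 46 had an entry. The RNA came from single capillaries with their surrounding cells, cut by laser microdissection from the ossification front (OF) of femurs, the zone under the growth plate where cartilage is replaced by bone. All mice were C57BL/6 carrying the Tg(TIE2GFP)287Sato/J transgene, in which the Tie2 promoter drives GFP in endothelial cells so that capillaries can be seen and cut, and no mouse had a deletion or treatment. Juvenile (4-week-old, n = 5) and adult (12-week-old, n = 4) libraries were compared, each pooled from many cut pieces. Nothing in the labels ties a library to an animal, so the p-values measure the spread between libraries.

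BMPs, TGF-betas and activins are secreted dimers of one protein family. Each ligand joins a pair of type II and a pair of type I serine/threonine kinase receptors, the type I receptor phosphorylates a receptor-regulated Smad, and this Smad moves with Smad4 to the nucleus to control genes such as the Id genes. In growing bone, BMPs drive osteoblast differentiation, TGF-beta is stored in the matrix in latent form and released during remodelling, and extracellular antagonists set how much ligand reaches its receptors.

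Library totals ran from 4856833 to 8077362 counts, and 3 counts, taken as the smallest readable level, stood for 0.371 to 0.618 CPM (counts scaled to the library total). Amplified reads are not independent molecules, so this floor covers counting error only. Of the juvenile libraries, 2 (replicates 4 and 5) had more Y-linked than Xist counts, and the other 7 libraries had the reverse, so the ages also differed in this pattern. The edgeR quasi-likelihood test was fitted to 13418 genes that passed the filter on low counts, and 520 of them (3.88%) had a Benjamini-Hochberg adjusted p under 0.05, the rule for a called gene. Of the 46 members, 43 were tested and 37 had more than 3 counts in all 9 libraries. Bmpr1b had no count in any library, Nog had 0 to 74 counts and Chrdl1 0 to 18 counts, and these 3 were not tested.

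Between the ages, 1 of the 43 tested members was called by edgeR: Tgfbr3, the co-receptor betaglycan, was 8.28-fold higher in the adult libraries. No member was called higher in the juvenile libraries by edgeR, where 8 members had an unadjusted p under 0.05. Called genes higher in adult made up 1.89% of all tested genes and those higher in juvenile 1.99%, so 1 of 43 in one direction (2.33%) and 0 in the other are close to what all genes show. At an unadjusted p under 0.05, 8 members (18.6%) were higher in juvenile, against 8.54% of all tested genes, and 6 (14.0%) were higher in adult, against 8.76%. DESeq2 with default settings called 1 member higher in juvenile (Tgfb3; 4.64% of its genes) and 4 higher in adult (Ltbp2, Tgfbr2, Tgfbr3 and Id4; 4.97%), while limma voom called only Tgfbr3 among them (1.85% of its genes higher in adult, 1.58% in juvenile). The median log2 fold change, juvenile over adult, was 0.16 over the tested members, with 25 above 0 (58.1%) and 18 below, and -0.01 over all tested genes, of which 49.5% were above 0.

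**Figure D1:**
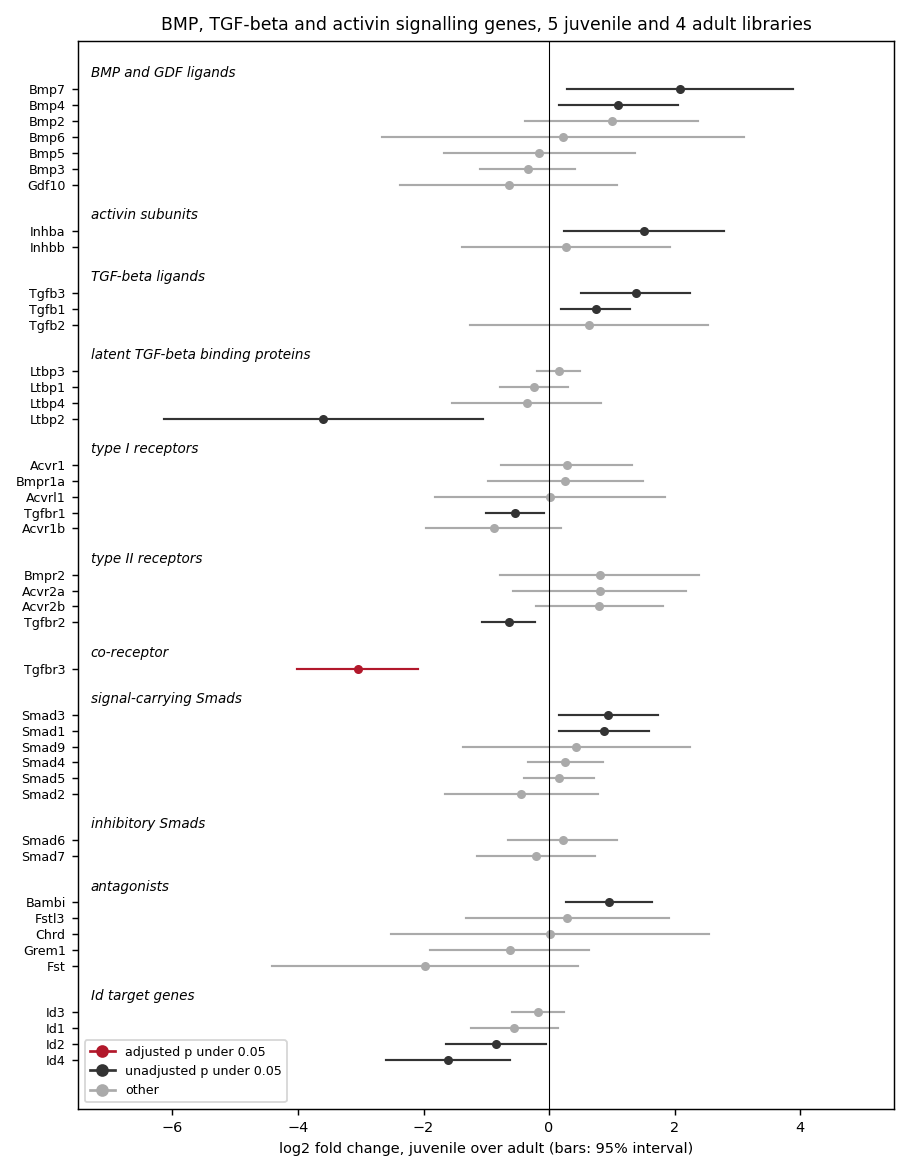
The 43 tested members grouped by role, each with its log2 fold change, juvenile over adult, on the x axis (points) and its 95% interval (bars), from edgeR on 5 juvenile and 4 adult libraries. Tgfbr3, at -3.05, is the only member with an adjusted p under 0.05. 14 members, Tgfbr3 included, had an unadjusted p under 0.05.

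Among the BMP and GDF ligands, none of 7 was called, and the 2 with an unadjusted p under 0.05, Bmp4 and Bmp7, both had the higher mean in juvenile OF. Bmp4, a ligand that induces bone and cartilage, was at 28.5, 34.9, 24.3, 36.8 and 21.4 CPM in juvenile replicates 1 to 5 and at 11.9, 5.01, 16.5 and 20.8 CPM in adult replicates 1 to 4. Every juvenile library lay above every adult library, although juvenile replicate 5 and adult replicate 4 were separated by little. Its log2 fold change was 1.10 (SE 0.44, adjusted p = 0.204 by edgeR). Bmp7, another bone-inducing ligand, was at 35.0, 31.0, 39.6, 36.0 and 28.4 CPM in juvenile and at 17.7, 8.35, 5.94 and 0 CPM in adult libraries. The juvenile libraries were close together and all above the adult ones, of which 1 had no count. For Bmp7 it was 2.08 (SE 0.83, adjusted p = 0.204), and voom, which weighted the libraries by quality, gave 4.09 (adjusted p = 0.0817). Leaving out 1 library gave log2 fold changes of Bmp7 from 1.65 to 2.83, the latter without adult replicate 1.

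Bmp3, a family member that opposes the bone-inducing BMPs, had the highest mean level per length of the 7 ligands, at 10.6 CPM per kilobase of exon over the 9 libraries. It was at 47.5, 49.8, 85.6, 90.3 and 75.7 CPM in juvenile and at 154, 39.1, 93.4 and 67.4 CPM in adult libraries. The ages overlapped over their whole range, and the log2 fold change of -0.34 (SE 0.35, adjusted p = 0.71) turned to 0.048 without adult replicate 1. Bmp2, Bmp5, Bmp6 and Gdf10 had log2 fold changes between -0.64 (Gdf10) and 1 (Bmp2), none called, and Bmp6 had no count in 2 libraries. Without strand information, counts of Bmp5 cannot be told from those of Gm26903, whose exons on the opposite strand cover 46.7% of its exon length.

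Inhba, which encodes the beta A subunit of activin A, was at 44.6, 14.1, 25.5, 33.2 and 39.0 CPM in juvenile and at 2.31, 19.0, 16.5 and 6.14 CPM in adult libraries. Juvenile replicate 2 lay within the adult range and the other 4 juvenile libraries lay above it. Its log2 fold change was 1.51 (SE 0.59, adjusted p = 0.189). Inhbb, for the beta B subunit, was at lower levels, from 1.44 to 23.5 CPM in juvenile and from 2.76 to 10.9 CPM in adult libraries, and its log2 fold change was 0.26 (SE 0.77, adjusted p = 0.922).

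The 3 TGF-beta ligands all had log2 fold changes above 0, and none was called by edgeR. Tgfb1, the isoform most abundant in bone matrix, was at 60.0, 98.5, 61.5, 60.4 and 55.3 CPM in juvenile and at 40.5, 37.7, 32.4 and 50.0 CPM in adult libraries. All juvenile libraries were above all adult libraries, with juvenile replicate 2 standing apart at the top. Its log2 fold change was 0.74 (SE 0.25, adjusted p = 0.132). Tgfb3 was at 107, 94.2, 73.0, 32.3 and 39.2 CPM in juvenile and at 28.4, 20.5, 17.1 and 40.2 CPM in adult libraries. Juvenile replicates 1 to 3 were high, while replicates 4 and 5, the libraries with more Y-linked than Xist counts, lay within the adult range. For Tgfb3 the log2 fold change was 1.38 (SE 0.40, adjusted p = 0.0777), and the gene was called by DESeq2 (adjusted p = 0.0165). Per length, Tgfb1 made up 26.8% to 55.7% and Tgfb3 40.7% to 71.5% of the sum of the 3 isoforms in a library, and Tgfb2 0.555% to 13.6%.

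The latent TGF-beta binding proteins hold latent TGF-beta in the matrix, except that Ltbp2 does not bind it and is a component of fibrillin microfibrils. Ltbp3 was at 243, 256, 294, 267 and 227 CPM in juvenile and at 269, 220, 245 and 192 CPM in adult libraries. The ages overlapped, its log2 fold change of 0.15 (SE 0.16, adjusted p = 0.716) had a 95% interval from -0.19 to 0.49, and per length it made up 61.8% to 84.3% of the 4 genes in every library. Ltbp2 was at 1.09, 0, 0, 1.69 and 0.636 CPM in juvenile and at 12.7, 14.0, 2.47 and 4.64 CPM in adult libraries. The juvenile libraries held 0 to 9 counts of it and the adult libraries 20 to 110 counts, with no overlap. Its log2 fold change was -3.60 (SE 1.18, adjusted p = 0.113), a fitted value that rests on few juvenile counts, and DESeq2 called the gene (adjusted p = 0.0122). Leaving out 1 library gave -4.25 (without juvenile replicate 4) to -3.27. Ltbp1 (-0.24) and Ltbp4 (-0.36) had log2 fold changes closer to 0.

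**Figure D2:**
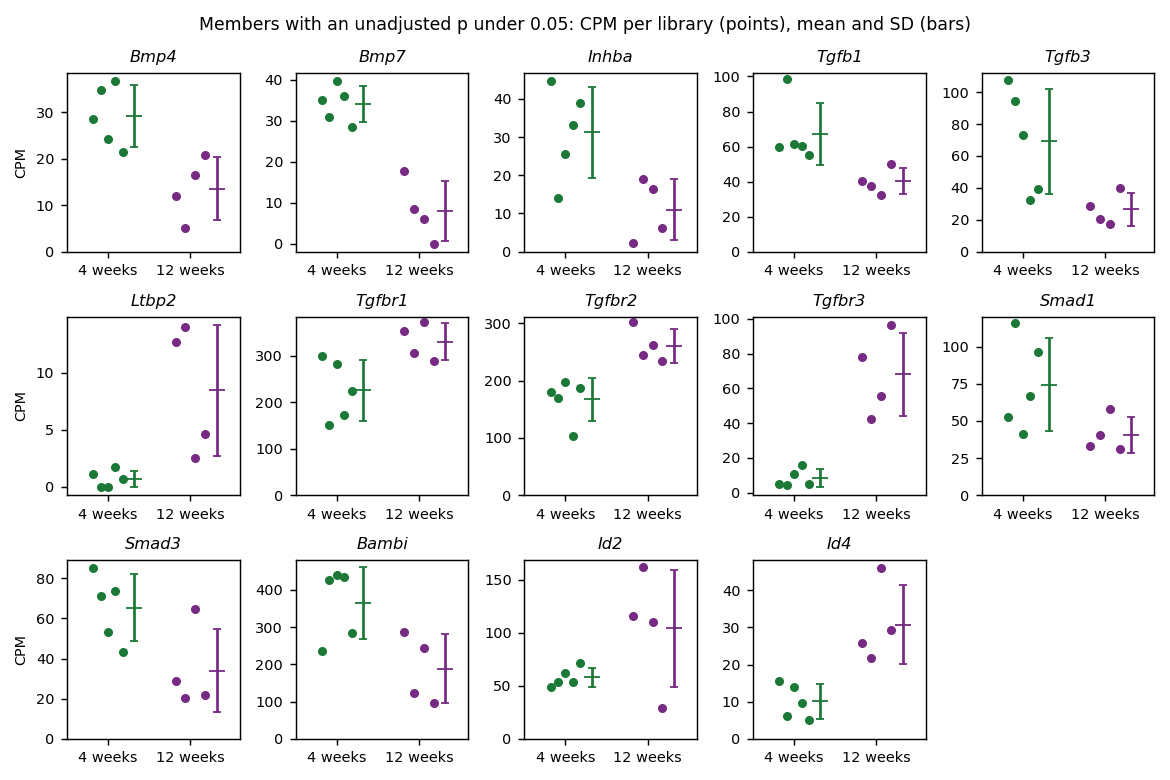
CPM in each library (points) of the 14 members with an unadjusted p under 0.05, with the mean and SD of each age (bars), for 5 juvenile (4 weeks) and 4 adult (12 weeks) libraries. Each panel has its own linear axis, and the ages do not overlap for Bmp4, Bmp7, Tgfb1, Ltbp2, Tgfbr2, Tgfbr3 and Id4.

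Among the receptors, the co-receptor Tgfbr3 was called and no kinase receptor was. Betaglycan, its product, is a membrane proteoglycan with no kinase that presents TGF-beta to its type II receptor and also binds inhibin. Tgfbr3 (ENSMUSG00000029287, chr5:107106570-107289629 of GRCm38, minus strand) was at 4.89, 4.61, 10.6, 16.1 and 4.87 CPM in juvenile and at 78.0, 42.6, 55.4 and 96.5 CPM in adult libraries. The lowest adult library was well above the highest juvenile library. The means were 8.23 ± 5.1 CPM (SD, n = 5) in juvenile and 68.1 ± 23.9 CPM (SD, n = 4) in adult libraries, and the log2 fold change was -3.05 (SE 0.45, 95% interval -4.01 to -2.09, adjusted p = 0.00299 by edgeR). Leaving out any 1 library kept the call, with log2 fold changes from -3.45 to -2.85 and adjusted p from 0.0023 to 0.0133, and so did leaving out juvenile replicates 4 and 5 (-3.35, adjusted p = 0.022). The unclassified transcript Gm43422 overlaps 4.54% of its exon length on the same strand. As in any bulk sample, fewer cells of a type and less RNA per cell cannot be told apart.

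Several marker lists of other cells moved with age, as Tgfbr3 did. The summed level of 8 neutrophil markers was 5.98 to 64.0 CPM in juvenile and 93.0 to 4324 CPM in adult libraries, and all 8 were called higher in adult. Ngp and Ltf of this list were at 0 in 4 of 5 juvenile libraries. In adult replicates 1 to 4 the neutrophil markers summed to 4324, 93.0, 3485 and 3482 CPM. Tgfbr3 was at 78.0, 42.6, 55.4 and 96.5 CPM in the same libraries. Of the adipogenic stroma markers, Cxcl12, a chemokine of marrow stromal cells, was at 67.2 to 151 CPM in juvenile and 192 to 870 CPM in adult libraries and was called higher in adult (log2 fold change -2.59, adjusted p = 0.00283). Lepr, of the same list, was called higher in juvenile (1.84, adjusted p = 0.00285), so the list as a whole did not move one way. The part of these cells in the Tgfbr3 difference was not tested.

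Tgfbr1 and Tgfbr2, the kinase receptors for TGF-beta, were both at higher means in adult OF without passing the adjusted threshold. Tgfbr1, the type I receptor, was at 301, 151, 282, 173 and 224 CPM in juvenile and at 354, 307, 373 and 288 CPM in adult libraries. Of the juvenile libraries, only replicate 1 reached into the adult range. Its log2 fold change was -0.55 (SE 0.21, adjusted p = 0.189). Tgfbr2, the type II receptor, was at 180, 169, 197, 104 and 187 CPM in juvenile and at 301, 244, 263 and 235 CPM in adult libraries. The ages did not overlap, the log2 fold change was -0.64 (SE 0.20, adjusted p = 0.0922), and DESeq2 called the gene (adjusted p = 0.0208). Per length, Tgfbr2 made up 48.9% to 78.2% of the 4 type II receptors in a juvenile library and 81.5% to 87.9% in an adult library, and Tgfbr1 51.5% to 82.1% of the 6 type I receptors over all libraries.

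The BMP and activin receptors were lower per length and none was called. Bmpr1a, a type I BMP receptor, was at 46.7 to 81.5 CPM in 8 of the 9 libraries, and adult replicate 2 had 3.34 CPM. Acvr1b, the type I activin receptor, was at 5.32 to 10.2 CPM in juvenile and at 12.1 to 16.2 CPM in adult libraries, without overlap (log2 fold change -0.88, SE 0.50, adjusted p = 0.403). Bmpr2, Acvr2a and Acvr2b, the type II receptors for BMPs and activins, each had a log2 fold change of 0.80, with SEs of 0.74, 0.64 and 0.47 and no call. Acvrl1, a type I receptor of endothelial cells, was at 5.93 to 18.3 CPM in juvenile libraries and at 1.98 to 4.18 CPM in 3 adult libraries, and adult replicate 4 had 40.5 CPM. Over the tested members, 3 did not overlap with juvenile above (6.98%, against 5.07% of all tested genes), and 5 with adult above (11.6%, against 4.08%), in all 8 (18.6%, against 9.15%). The 5 were Ltbp2, Acvr1b, Tgfbr2, Tgfbr3 and Id4.

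Of the signal-carrying Smads, none of 6 was called. Smad1, which carries BMP signals, was at 52.6, 116, 40.9, 67.0 and 96.2 CPM in juvenile and at 33.3, 40.2, 57.8 and 31.1 CPM in adult libraries. The ages overlapped, and the log2 fold change was 0.88 (SE 0.33, adjusted p = 0.177). Smad3, which carries TGF-beta and activin signals, was at 85.4, 71.3, 53.4, 73.6 and 43.2 CPM in juvenile and at 28.8, 20.5, 64.8 and 21.8 CPM in adult libraries. Adult replicate 3 lay inside the juvenile range and the other 3 adult libraries below it. For Smad3 the log2 fold change was 0.94 (SE 0.37, adjusted p = 0.189), and without adult replicate 3 it was 1.44 and passed the threshold (adjusted p = 0.0318).

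Smad4, the partner shared by all receptor-regulated Smads, had the highest level per length of the 6. It was at 97.0, 106, 112, 93.5 and 116 CPM in juvenile and at 73.4, 143, 44.3 and 90.0 CPM in adult libraries. The adult libraries spread around the narrow juvenile range (log2 fold change 0.26, SE 0.28, adjusted p = 0.726). Of the inhibitory Smads, Smad6, which blocks BMP signals in particular, was at 57.1, 57.6, 46.2, 62.9 and 58.3 CPM in juvenile and at 104, 42.8, 22.8 and 24.8 CPM in adult libraries. Adult replicate 1 was above and the other 3 below all juvenile libraries, and the log2 fold change of 0.22 (SE 0.40, adjusted p = 0.864) changed sign without adult replicate 3 or 4. Smad7, which blocks TGF-beta and BMP signals, was at 30.4 to 49.1 CPM in juvenile and 14.2 to 92.5 CPM in adult libraries.

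Bambi, a receptor-like protein without a kinase domain that passes on no signal, was the most abundant antagonist per length. It was at 237, 427, 440, 434 and 283 CPM in juvenile and at 287, 123, 244 and 96.5 CPM in adult libraries. Juvenile replicates 1 and 5 lay within the adult range and the other 3 far above it. The log2 fold change was 0.95 (SE 0.32, adjusted p = 0.124). Per length, Bambi made up 83.4% to 95.3% of the 7 antagonists in a juvenile library and 61.8% to 81.9% in an adult library, ranges that did not overlap.

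The secreted antagonists were rare. Nog, which encodes the BMP antagonist noggin, had 0, 0, 4, 0 and 0 counts in juvenile and 74, 6, 6 and 41 counts in adult libraries. It was thus above 3 counts in all adult libraries and in 1 juvenile library, and was too low for the test. Grem1, Chrd and the activin-binding Fst and Fstl3 had log2 fold changes from -1.98 (Fst, SE 1.13, adjusted p = 0.412) to 0.29, none called. Prss57 on the opposite strand overlaps 47.3% of the exon length of Fstl3, so its counts are uncertain.

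**Figure D3:**
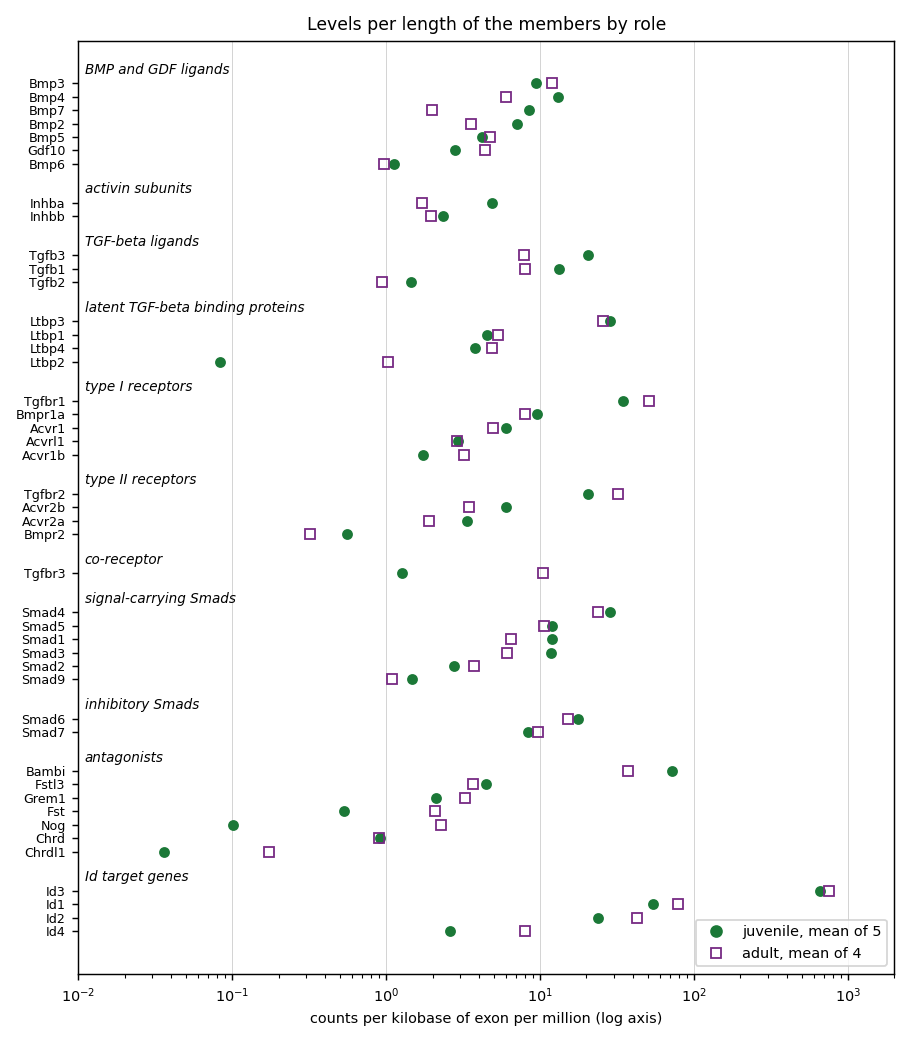
Mean level of each member in CPM per kilobase of exon (log axis), by role, in juvenile (filled circles, n = 5) and adult (open squares, n = 4) libraries. Id3 is the highest at 661 and 747, followed by Id1 and Bambi, and Bmpr1b, at 0, is not drawn.

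The Id genes encode helix-loop-helix proteins that bind and inactivate differentiation factors, and are direct targets of BMP Smads. All 4 had log2 fold changes below 0 and none was called by edgeR. Id3 had the highest level per length of all 46 members, at 661 ± 133 (SD, n = 5) in juvenile and 747 ± 176 (SD, n = 4) CPM per kilobase in adult libraries, and made up 83.6% to 93.8% of the summed Id level in a library. It was at 942, 1532, 1125, 1309 and 1011 CPM in juvenile and at 1372, 1209, 1755 and 1013 CPM in adult libraries. The ages overlapped almost completely, and the 95% interval of its log2 fold change of -0.18 (SE 0.19, adjusted p = 0.732) ran from -0.59 to 0.24.

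Id2 was at 49.3, 53.9, 61.7, 53.9 and 71.4 CPM in juvenile and at 116, 162, 111 and 28.8 CPM in adult libraries. Adult replicates 1 to 3 were above all juvenile libraries and adult replicate 4 below all of them. The log2 fold change was -0.85 (SE 0.37, adjusted p = 0.247), and -1.17 without adult replicate 4, when it passed the threshold (adjusted p = 0.0201). Id4 was at 15.6, 6.05, 13.8, 9.76 and 5.09 CPM in juvenile and at 25.7, 21.9, 46 and 29.2 CPM in adult libraries. There was no overlap between the ages. Id4 had a log2 fold change of -1.61 (SE 0.46, adjusted p = 0.0719), and DESeq2 called it (adjusted p = 0.00509). Id1 was at 27.4 to 91.7 CPM in juvenile and at 66.8 to 107 CPM in adult libraries (log2 fold change -0.55, SE 0.32, adjusted p = 0.417).

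Promoter sequences of Id2, Id3, Id4 and the feedback inhibitor Smad6 are shown because these genes are known targets of BMP Smads. The GC-rich motif GGCGCC of Smad1 and Smad5 can be looked for in them. So can GTCTAGAC, a palindromic Smad motif that is not particular to BMP Smads. Each runs from 250 bases before to 20 bases after a start site in RefSeq (GRCm38.p6), 5′ to 3′ on the strand of the gene, and capitals mark a motif match on either strand. Such start sites need not be the first base of the gene model that gave the exon length.
Id2 (chr12:25096073-25096342, minus strand): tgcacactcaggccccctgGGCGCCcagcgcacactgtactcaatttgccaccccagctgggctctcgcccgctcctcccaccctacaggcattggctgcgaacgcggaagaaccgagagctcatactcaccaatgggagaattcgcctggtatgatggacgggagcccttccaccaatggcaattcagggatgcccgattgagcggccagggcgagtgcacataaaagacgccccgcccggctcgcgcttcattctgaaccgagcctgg
Id3 (chr4:136143572-136143841, plus strand): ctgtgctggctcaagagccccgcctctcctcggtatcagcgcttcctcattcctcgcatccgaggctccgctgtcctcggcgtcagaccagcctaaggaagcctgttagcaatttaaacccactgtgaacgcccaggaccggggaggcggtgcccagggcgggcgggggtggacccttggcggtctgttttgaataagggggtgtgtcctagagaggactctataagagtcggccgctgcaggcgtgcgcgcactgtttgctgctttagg
Id4 (chr13:48260866-48261135, plus strand): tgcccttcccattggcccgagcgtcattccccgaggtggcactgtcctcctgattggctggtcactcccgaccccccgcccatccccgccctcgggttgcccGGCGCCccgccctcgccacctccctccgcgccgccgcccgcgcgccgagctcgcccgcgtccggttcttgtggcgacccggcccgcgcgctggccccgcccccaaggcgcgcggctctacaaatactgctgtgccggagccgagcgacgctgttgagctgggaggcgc
Smad6 (chr9:64022040-64022309, minus strand): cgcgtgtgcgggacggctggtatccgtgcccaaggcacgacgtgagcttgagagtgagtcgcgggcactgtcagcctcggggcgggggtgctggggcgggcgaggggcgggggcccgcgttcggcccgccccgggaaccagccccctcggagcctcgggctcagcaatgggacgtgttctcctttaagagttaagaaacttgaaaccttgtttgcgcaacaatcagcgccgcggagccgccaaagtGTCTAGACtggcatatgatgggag
The windows of Id2 and Id4 held GGCGCC once each, a motif present in 10.4% of 32851 RefSeq windows of the same length. That of Smad6 held GTCTAGAC across the start site, a motif in 0.183% of windows, and that of Id3 held neither. Of the 46 members, 32 had a window, with 40 windows between them. GGCGCC was found in 11 of these 40 windows, from 10 members, and GTCTAGAC in that of Smad6 alone. CAGACA, a Smad-type motif that is in 18.7% of all windows, was in 8 of the 40, from 8 members. None of these motifs contains another.

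For 5 members (Ltbp1, Ltbp3, Smad4, Smad5 and Id3) the 95% interval of the log2 fold change lay within 1 either way. That is 11.6% of the tested members, against 24.5% of all tested genes. For the other members without a call, the interval reached past a log2 fold change of 1 in at least 1 direction, so these libraries do not show that their levels were alike.

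Other genes of the pathway were described from a list of 78 names, of which 77 were found in the files and 47 were tested. Called genes were 3 higher in juvenile (6.38%, against 1.99% of all tested genes) and none higher in adult (against 1.89%) by edgeR. At an unadjusted p under 0.05, 10 (21.3%) were higher in juvenile, against 8.54% of all tested genes. In the other direction 2, Sost and Thbs1, were higher in adult (4.26%, against 8.76%). DESeq2 called 8 higher in juvenile (14.3%, against 4.64% of its genes) and these 2 higher in adult (3.57%, against 4.97%). Voom called Sost higher in adult. Bmp1 is a metalloproteinase that cuts procollagens and the antagonist chordin and is not a ligand of the family. It was at 1321, 1325, 1345, 1871 and 1712 CPM in juvenile and at 576, 641, 524 and 623 CPM in adult libraries, far from overlapping, with a log2 fold change of 1.36 (SE 0.16, adjusted p = 0.00106). This call held in all alternatives run and without any 1 library.

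Smoc2, a secreted matrix protein, was at 83.4, 105, 54.5, 49.6 and 48.3 CPM in juvenile and at 25.2, 16.7, 35.8 and 16.7 CPM in adult libraries, without overlap (log2 fold change 1.53, SE 0.34, adjusted p = 0.028). Sp7, the osteoblast transcription factor osterix, was at 286, 324, 468, 448 and 351 CPM in juvenile and at 249, 190, 183 and 119 CPM in adult libraries. It too did not overlap (log2 fold change 1.02, SE 0.23, adjusted p = 0.027). Leaving out 1 library raised the adjusted p to as much as 0.0716 for Smoc2 (lost without juvenile replicate 1 or 2 or adult replicate 2 or 4) and 0.0734 for Sp7 (lost without juvenile replicate 3, 4 or 5 or adult replicate 3 or 4). Without juvenile replicates 4 and 5 only Bmp1 of the 3 was called, and voom did not call Smoc2 (adjusted p = 0.0789). Eng, the endothelial co-receptor endoglin, was at 41.2, 87.9, 69.8, 42.2 and 67.0 CPM in juvenile and at 64.4, 93.4, 85.1 and 86.9 CPM in adult libraries. Those ranges overlapped (log2 fold change -0.42, SE 0.26, adjusted p = 0.466). The median log2 fold change of the 47 was 0.28, with 30 above and 17 below 0.

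The cell makeup of the cut pieces was read from 12 marker lists with 88 genes. Osteoblast markers summed to 166969 to 208900 CPM in juvenile and 61559 to 91067 CPM in adult libraries, with 4 of 8 called higher in juvenile (Sp7, Ibsp, Col1a1 and Col1a2) and 2 higher in adult (Bglap and Bglap2). Col1a1 (63485 to 82585 CPM in juvenile, 23413 to 33979 CPM in adult) and Col1a2 made up most of these sums. Bglap was at 860 to 2421 CPM in juvenile and 2514 to 9452 CPM in adult libraries. Alpl and Pth1r were not called, so the list as a whole did not move one way. Osteocyte markers, which include Dmp1, summed to 1191 to 2507 CPM and 628 to 735 CPM. Of the 6, 5 were tested and 1 was called, and Fgf23 was at 0 in all libraries. By RNA in situ hybridisation, the study found Dmp1 mRNA in the OF mainly in osterix-positive osteoblasts, and Sost only in cortical bone. This sum is thus not a measure of osteocytes alone. Dmp1, the called gene, made up most of the juvenile sums (865 to 2023 CPM, against 304 to 493 CPM in adult libraries), while Sost was at 0 to 5.96 CPM in juvenile and 10.8 to 52.5 CPM in adult libraries (log2 fold change -3.40, adjusted p = 0.0881) and Mepe had a log2 fold change of -1.26 (adjusted p = 0.587), so the list as a whole did not move one way. The endothelial markers, which check the labelled capillaries, were all tested and summed to 573 to 904 CPM in juvenile and 679 to 789 CPM in adult libraries, with 0 of 8 called. These values stand beside Bmp4, Bmp7, Inhba, Tgfb1, Tgfb3, Smad1, Smad3, Bambi, Bmp1 and Smoc2, whose means were also higher in the juvenile libraries, and the part of osteoblast content in them was not tested. Sp7, called in the pathway list, is itself one of the osteoblast markers.

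Several blood and marrow lists had higher sums in adult libraries. Erythroid markers summed to 419 to 2555 CPM in juvenile and 4716 to 37038 CPM in adult libraries, with 8 of 9 tested and all 8 called. Macrophage markers summed to 461 to 811 CPM and 1011 to 1649 CPM, with 1 of 6 called. Osteoclast markers summed to 12951 to 21215 CPM and 16598 to 25625 CPM, with 2 of 8 called higher in adult. Megakaryocyte markers ranged from 278 to 670 CPM and from 473 to 4654 CPM, with 4 of 6 tested, 1 called and the top value in adult replicate 4. Ppbp, not tested, was at 1755 CPM in that library. Itgb3 made up most of the juvenile sums (265 to 646 CPM, against 410 to 589 CPM in adult libraries). Pf4, the called gene, was at 1.69 to 11.7 CPM in juvenile and 57.4 to 1935 CPM in adult libraries. B lineage markers ranged from 36.9 to 70.4 CPM and from 21.9 to 207 CPM, with 5 of 7 tested and 0 called. Ebf1 made up most of their juvenile sums (36.0 to 45.3 CPM, against 20.4 to 65.6 CPM in adult libraries). In juvenile libraries the megakaryocyte and B lineage sums thus mainly read Itgb3 and Ebf1, not the lists as a whole. Chondrocyte markers ranged from 357 to 983 CPM in juvenile and from 583 to 4155 CPM in adult libraries, with adult replicate 2 at the top. Of these 7 genes, 5 were tested and 1 was called. Pericyte and smooth muscle markers, at 421 to 680 CPM and 388 to 647 CPM, had 7 of 8 tested and 0 called. Adipogenic stroma markers ranged from 311 to 472 CPM and from 426 to 1196 CPM. The part of these lists in the values of Ltbp2, Tgfbr1, Tgfbr2, Id2 and Id4, which had higher means in adult, was not tested.

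**Figure D4:**
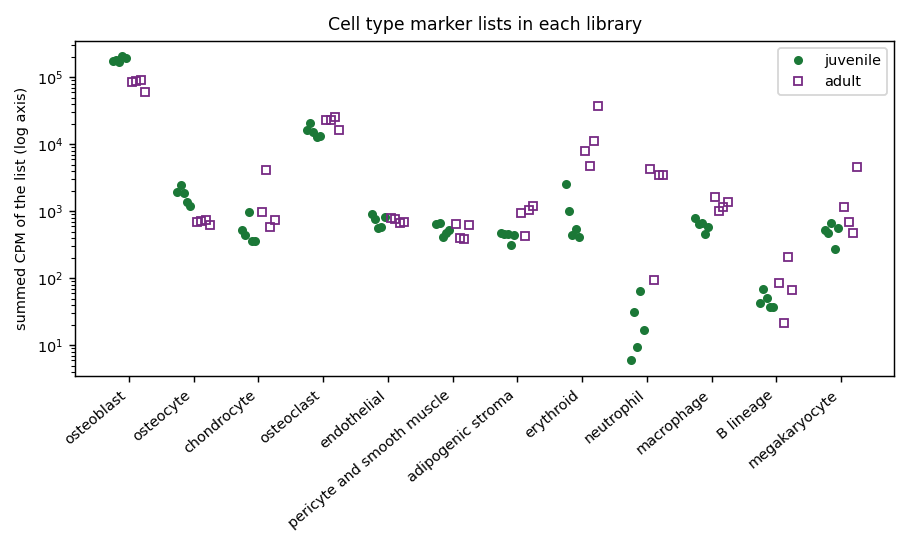
Summed CPM (log axis) of 12 cell type marker lists in each of the 5 juvenile (filled circles) and 4 adult (open squares) libraries. Osteoblast sums, mostly Col1a1 and Col1a2, are lower in all adult libraries, neutrophil and erythroid sums are higher in all of them, and endothelial sums overlap.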

How the data were processed

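The submitters' processing notes and the study's methods state that paired-end SMART-Seq reads were mapped to mm10 (GRCm38) with TopHat2 and Bowtie2, and the notes name featureCounts. The authors deposited raw counts per Ensembl gene, 1 file per library, unfiltered and not normalized. The strand setting, versions and annotation release are not given in the sources used here. Groups were taken from the sample titles.

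Counts were tested with edgeR 4.0.16 under R 4.3.3 (filterByExpr defaults, TMM, quasi-likelihood F test, no covariate, Benjamini-Hochberg over all tested genes, threshold 0.05). CPM used the summed counts of genes that passed the filter, multiplied by the TMM factor of the library. These factors were 0.915 to 0.971 in juvenile and 1.03 to 1.12 in adult libraries. Only the floor of 3 counts used the library totals. Exon lengths came from GENCODE, which held 96.0% of the gene identifiers. Alternatives were DESeq2 1.42.0, limma 3.58.1 voom with quality weights, other scalings and filters, a replicate block, removal of haemoglobin, immunoglobulin, mitochondrial, Y-linked genes and Xist, removal of juvenile replicates 4 and 5, and leaving out each library. The fits were tested on simulated data.

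Values in each library are given for members with an adjusted or unadjusted p under 0.05, for the highest member of each role per length, for called genes of the pathway list and for Eng. Other members named were chosen after their values were seen. The members, lists and rules were chosen with earlier results of these data known. Intervals of a fold change are at 95%. No pair of libraries had identical counts. Figures were drawn with matplotlib 3.10.9.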

Additional observations from a re-analysis of the deposited data

Results flagged for a closer look

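Over the 43 tested members in each age, 86 groups of libraries were searched for a library whose gap to the nearest of the others, divided by the range of its group, was above Dixon's 95% critical value. In 7 groups a library stood apart, where chance gives about 4.3. In the juvenile libraries, Bmp2 was low in replicate 1 (9.25 CPM, against 26.8 to 31.2 CPM in the others, ratio 0.802). Tgfb1 was high in juvenile replicate 2 (98.5 CPM against 55.3 to 61.5 CPM, ratio 0.857), and Grem1 in juvenile replicate 5 (13.6 CPM against 6.48 to 8.09 CPM, ratio 0.773). In the adult libraries, Bmp6 was high in replicate 1 (12.5 CPM against 0 to 1.88 CPM, ratio 0.849). Chrd was high in adult replicate 3 (19.2 CPM against 0 to 1.85 CPM, ratio 0.904). Adult replicate 4 was high for Acvrl1 (40.5 CPM against 1.98 to 4.18 CPM, ratio 0.943) and for Acvr2b (24.4 CPM against 9.16 to 10.7 CPM, ratio 0.896). No explanation was tested for these values.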

How the results depend on the processing

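Tgfbr3 was called in all 9 alternatives (log2 fold change -3.35 to -3.02, adjusted p 2e-09 to 0.0249) and in all fits without 1 library (-3.45 to -2.85). Over all genes, 520 calls became 1492 with DESeq2 and 647 with at least 10 counts in every library. There were 73 calls without juvenile replicates 4 and 5, and 262 to 651 when 1 library was left out. Shares of all genes were not computed for fits with other filters or fewer libraries. With DESeq2, 1 member (2.22%) was called higher in juvenile, against 4.64% of its genes, and 4 (8.89%) higher in adult, against 4.97%. With at least 10 counts in every library, 1 member was called higher in juvenile (Tgfb3 in either case). That filter gave 3 members higher in adult (Id4, Tgfbr2 and Tgfbr3). When 1 library was left out, 0 to 1 members were called higher in juvenile and 1 to 2 higher in adult. In the pathway list, DESeq2 called 8 higher in juvenile (14.3%, against 4.64%) and 2 higher in adult (3.57%, against 4.97%). Voom called 2 higher in juvenile (4.26%, against 1.58%) and 1 higher in adult (2.13%, against 1.85%). With at least 10 counts in every library, 1 was called higher in adult. Without juvenile replicates 4 and 5, 1 was called higher in juvenile. When 1 library was left out, 1 to 3 were called higher in juvenile and 0 to 1 higher in adult. When 1 library was left out, the log2 fold change ran from -0.61 to 0.048 for Bmp3 (above 0 without adult replicate 1) and from -0.041 to 0.89 for Smad6 (-0.041 and -0.024 without adult replicate 3 and 4). The cause was not tested. With the replicate number as a block, in which juvenile replicate 5 has no partner, 89 genes, 1 member (Tgfbr3) and 1 pathway list gene (Bmp1) were called. No label says that the replicate numbers pair the libraries. Correlations of the deviations of same-numbered libraries were 0.027, -0.032, 0.019 and 0.03, and 3 of the 4 correlated best with their own number. Such values cannot settle whether the numbers pair the libraries, because no range expected without pairing was computed. No scaling moved the median log2 fold change of all genes by over 0.1. At these depths, members near 3 counts, such as Nog, Chrdl1 and Ltbp2 in juvenile libraries, are read with little precision.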
